A study of Mus musculus with 2 samples.

Results

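The genes described are 10 members of the Notch pathway in the embryonic mouse kidney: the 4 receptors Notch1, Notch2, Notch3 and Notch4, the 3 ligands Jag1, Dll1 and Dll4, and the 3 target genes Hes1, Hes5 and Hey1. They were chosen by name for their place in the pathway, and all 10 were found among the 43346 genes of the deposited tables. Total RNA-seq was run on kidneys of mice of the strain B6NCrl at embryonic day 14.5. There is 1 group, of 2 biological replicates taken 2 days apart, each made from the 2 kidneys of 1 embryo. No gene is altered and no treatment is named in the labels, which describe each sample as coming from a single embryo and also call it a pool of both sexes.

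Notch signalling passes between touching cells. A ligand of the Jagged or Delta-like family on one cell binds a Notch receptor on its neighbour, the receptor is cut first by an ADAM protease and then by gamma-secretase, and the freed intracellular domain enters the nucleus, where it joins the DNA-binding protein RBPJ and a Mastermind-like coactivator to switch on genes of the Hes and Hey families. In the developing kidney the pathway is known for its part in forming the proximal segments and podocytes of the nephron, and it also works in the branching collecting duct, in blood vessels and in the cells around them.

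The libraries held 29718428 and 29204212 expected counts, which are estimated reads per gene, and the 10 genes took 24030 of these counts in replicate 1 and 21134 in replicate 2. Spike-in RNAs took 4.34% and 4.95%. All 11 kidney markers tried were detected, a gene being called detected at 1 TPM or more in both libraries; TPM is the number of transcripts scaled to gene length and to a fixed library total. Six2 marks nephron progenitors, Foxd1 the stroma and Ret the ureteric bud, so each level is an average over many cell types, and in such a sample fewer cells of a type and less RNA per cell cannot be told apart. With 2 samples of 1 group no difference between them can be tested, and no p-value is given. The mean ± SD over the 2 libraries is the error of each level.

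The DNA just before a target gene is where RBPJ can act, and 3 Hes and Hey genes had the RBPJ word in the stretch before their start in RefSeq (GRCm38.p6). The word searched was GTGGGAA or, on the other strand, TTCCCAC, in windows from 250 bases before to 50 bases after each start. The lines below run 5′ to 3′ on the strand of the gene, with each match in capitals. They are shown because Hes5 is a member with matches, while Hey2 and Hes7 are those with one among the 4 of 7 other targets that matched the promoter table, where 2 of 5 windows held the word. The stretch of Hes5 is chr4:154960673-154960922 on the plus strand, that of Hey2 is chr10:30842781-30843033 on the minus strand, carried to the end of a match that crosses the start, and that of Hes7 is chr11:69120203-69120452 on the plus strand.
Hes5: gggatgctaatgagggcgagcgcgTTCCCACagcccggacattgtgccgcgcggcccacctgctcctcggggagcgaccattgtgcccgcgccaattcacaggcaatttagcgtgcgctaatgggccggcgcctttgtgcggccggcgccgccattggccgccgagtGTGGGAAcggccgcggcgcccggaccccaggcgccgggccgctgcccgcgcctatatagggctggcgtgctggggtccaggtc
Hey2: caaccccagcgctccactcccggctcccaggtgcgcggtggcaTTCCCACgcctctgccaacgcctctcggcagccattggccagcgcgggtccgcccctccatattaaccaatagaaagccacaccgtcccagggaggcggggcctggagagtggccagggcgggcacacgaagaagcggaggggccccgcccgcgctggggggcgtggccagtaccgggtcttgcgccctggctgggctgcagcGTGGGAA
Hes7: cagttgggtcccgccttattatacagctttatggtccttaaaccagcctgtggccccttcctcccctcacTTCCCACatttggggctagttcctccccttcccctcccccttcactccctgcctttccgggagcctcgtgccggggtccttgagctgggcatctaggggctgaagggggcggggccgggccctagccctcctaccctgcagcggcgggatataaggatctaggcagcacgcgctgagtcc
Hes5 carried 2 matches, whose first bases lay 226 and 83 bases before the start, 143 bases apart and on opposite strands. Hey2 also had 2 matches on opposite strands, at 207 and 4 bases before its start. In Hes7 a single match lay 180 bases before the start. Of all 32851 RefSeq windows of this length, 6.38% held the word at least once and 0.256% held it at 2 or more places. Of the members, 8 matched the promoter table with 9 windows, and the word was in 1 of these 9, that of Hes5; the windows of the receptors and ligands had none. Hes1, Hey1, Hes2, Hes3 and Heyl had no entry. The shorter word TGGGAA, which lies inside the longer one, was in 25.6% of all windows and in the same 1 of the 9 member windows. A match is a stretch of letters and no measurement of binding, and its absence says only that these letters are not in the window.

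All 10 members were detected, and at the level of the gene they spanned from about 5 to 58 TPM. Because TPM is scaled to length, levels of different genes can be set side by side. The median of the 14329 genes detected was 15.8 TPM and the upper quartile 42.0 TPM. Hes1 was the 1 member above that quartile, and Hes5, Notch4, Notch3 and Dll4 lay below the median. Dll1 stood at the median itself.

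Among the receptors, Notch1 and Notch2 stood together well above Notch3 and Notch4. Notch1 (ENSMUSG00000026923.11, chr2:26457903-26516663, minus strand), which with Notch2 is the receptor best known from developing epithelia, measured 35.0 TPM in replicate 1 and 24.1 TPM in replicate 2, or 29.5 ± 7.70 TPM (SD, n = 2). Notch2 (ENSMUSG00000027878.10, chr3:98013527-98150361, plus strand), the receptor whose loss in the mouse kidney removes proximal nephron fates, measured 32.4 and 25.7 TPM, or 29.1 ± 4.73 TPM (SD, n = 2). On TPM Notch1 was the higher of this pair in replicate 1 and Notch2 in replicate 2, so their ranges overlapped and neither led in both. On the deposited posterior mean TPM Notch1 was the higher in both, at 38.18 and 28.65 against 31.48 and 25.08.

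Notch3, known mainly from pericytes and smooth muscle of vessels (ENSMUSG00000038146.7, chr17:32120820-32166852, minus strand), measured 12.5 and 12.3 TPM, or 12.4 ± 0.170 TPM (SD, n = 2). On TPM its libraries lay closer together than those of any other member, which was not so on FPKM or on counts. Notch4, known mainly from endothelium (ENSMUSG00000015468.10, chr17:34564268-34588503, plus strand), measured 7.83 and 6.54 TPM, or 7.19 ± 0.912 TPM (SD, n = 2). Of the summed receptor TPM, Notch1 took 37.5% ± 3.37, Notch2 37.2% ± 0.382, Notch3 16.1% ± 2.56 and Notch4 9.23% ± 0.429 (SD, n = 2). Counting only protein-coding transcripts, which are described below, Notch4 took 4.12% ± 1.03.

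Among the ligands Jag1 led in both libraries, followed by Dll1 and then Dll4. Jag1 (ENSMUSG00000027276.7, chr2:137081456-137116644, minus strand), the Jagged ligand whose human counterpart is mutated in Alagille syndrome, measured 44.3 and 27.4 TPM, or 35.8 ± 11.9 TPM (SD, n = 2). Dll1 (ENSMUSG00000014773.9, chr17:15367354-15376872, minus strand), a Delta-like ligand of early nephrons, measured 19.3 and 12.3 TPM, or 15.8 ± 4.99 TPM (SD, n = 2). The lowest was Dll4 (ENSMUSG00000027314.6, chr2:119325784-119335962, plus strand), known from arterial and sprouting endothelium, with 6.50 and 3.70 TPM, or 5.10 ± 1.98 TPM (SD, n = 2).

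All 3 ligands were lower in replicate 2, as were 74.7% of all genes at 5 TPM or more in the higher library, and on gene-level TPM their proportions hardly moved. Jag1 took 63.1474% of the summed ligand TPM in replicate 1 and 63.1797% in replicate 2. The ratio of Jag1 to Dll1 was 2.29 in replicate 1 and 2.23 in replicate 2, and that of Jag1 to Dll4 was 6.81 and 7.41. The ligand sum was 70.1 TPM in replicate 1 and 43.4 TPM in replicate 2, a ratio of 1.61. On protein-coding transcripts alone the share of Jag1 was 66.6% and 70.2%. The receptor sum was 87.7 and 68.6 TPM, a ratio of 1.28.

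The 3 targets encode basic helix-loop-helix repressors, and their proportions did move. Hes1 (ENSMUSG00000022528.7, chr16:30064384-30067796, plus strand), a broadly used effector of Notch and other signals, was the highest member, at 54.0 and 61.6 TPM, or 57.8 ± 5.36 TPM (SD, n = 2). Hey1 (ENSMUSG00000040289.4, chr3:8663359-8667256, minus strand), which is also known from arteries, measured 40.8 and 27.0 TPM, or 33.9 ± 9.76 TPM (SD, n = 2). Hes5 (ENSMUSG00000048001.7, chr4:154960923-154962371, plus strand), a target that depends closely on Notch in neural progenitors and is also used in early nephrons, measured 6.38 and 11.6 TPM, or 8.99 ± 3.68 TPM (SD, n = 2).

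The target sum was almost equal in the libraries, at 101 and 100.2 TPM, although Hes1 and Hes5 were higher and Hey1 lower in replicate 2. The ratio of Hes1 to Hes5 was 8.47 in replicate 1 and 5.32 in replicate 2. For Hey1 to Hes5 the ratio went from 6.39 to 2.33. Hes1 took 57.5% ± 5.73 of the target sum, Hey1 33.6% ± 9.46 and Hes5 8.94% ± 3.72 (SD, n = 2).

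In order of mean TPM the members ran Hes1, Jag1, Hey1, Notch1, Notch2, Dll1, Notch3, Hes5, Notch4 and Dll4. The library ranges of neighbours were separate between Hes1 and Jag1, between Notch2 and Dll1, between Notch3 and Hes5 and between Notch4 and Dll4. Every other pair of neighbours overlapped. Within a library Jag1 was above Hey1, Hey1 above Notch1 and Dll1 above Notch3 both times on TPM. In replicate 2, however, Jag1 and Hey1 were close, at 27.42 and 26.95 TPM. Dll1 and Notch3 were nearly tied there, at 12.28 and 12.26 TPM. Notch1 and Notch2 changed places between the libraries, as did Hes5 and Notch4.

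**Figure D1:**
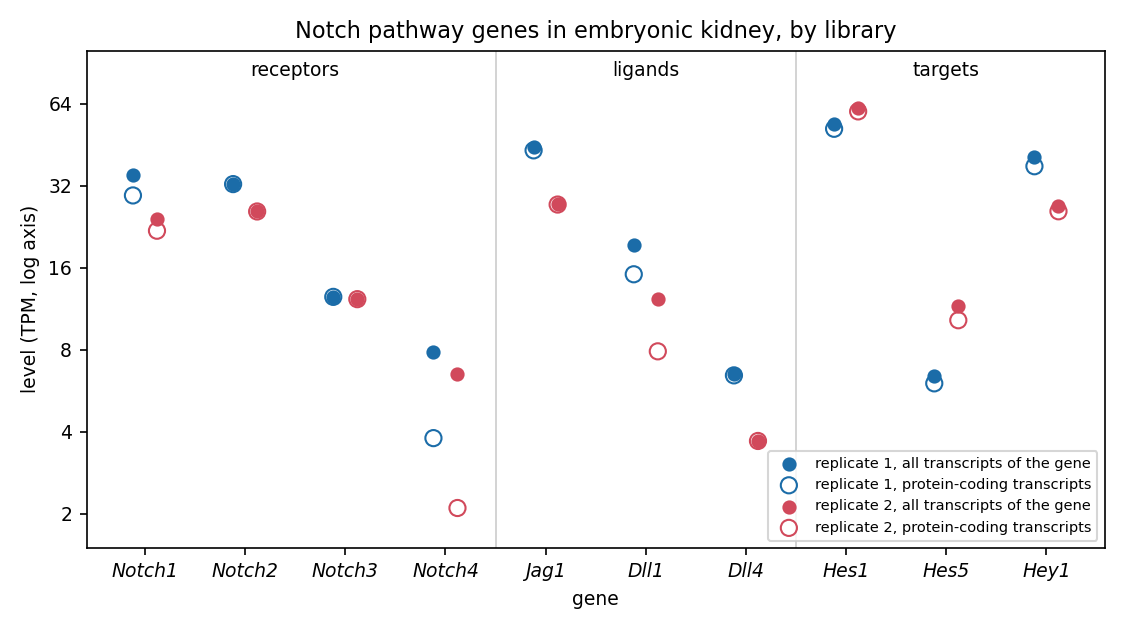
Level of each member in TPM (log axis) in replicate 1 (blue) and replicate 2 (red); filled points count all transcripts of the gene and open rings its protein-coding transcripts. The rings fall on the points for Notch2 and Notch3, and lie far below them for Notch4, at 3.79 and 2.10 TPM against 7.83 and 6.54 TPM.

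A gene's TPM sums over its annotated transcripts, and for most members 1 protein-coding transcript made up nearly all of it. The leading transcript was protein-coding and the same in both libraries in 10 of 10 members. Notch2 and Notch3 had only 1 transcript in the tables. In Jag1 the leading transcript held 97.4% and 99.4% of the gene's TPM, in Dll4 99.1% and 100%, in Hes1 95.7% and 97.2%, and in Hey1 92.5% and 95.6%. Protein-coding transcripts held over 90% of TPM in both libraries for 6 of 10 members, and over 90% of expected counts for 9 of 10. The exceptions on TPM were Notch1, Notch4, Dll1 and Hes5.

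Notch4 was the extreme. Its protein-coding transcript Notch4-201 (6591 nt) held 92.8% of the gene's counts in replicate 1 and 88.9% in replicate 2, but 48.5% and 32.1% of its TPM. Next to it stood short noncoding transcripts that rested on few reads and were raised by the division by length. Notch4-203, a processed transcript of 356 nt at chr17:34564298-34565616, took 31.9% and 18.0% of the gene's TPM from 12.5 and 6.80 expected counts. All of its bases (100%) lie within exons of Notch4-201, so that reads from those bases match both.

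The other short transcripts of Notch4 varied between libraries. Notch4-210, of 619 nt, took 11.1% and 21.4% of the TPM, from 8.80 and 16.4 counts. Notch4-209, a retained intron of 352 nt, was listed at 0 in replicate 1 and took 16.4% in replicate 2, from 6.12 counts. On protein-coding transcripts alone Notch4 measured 3.79 and 2.10 TPM, or 2.95 ± 1.20 TPM (SD, n = 2), less than its gene-level mean by more than 1.5-fold, and it then stood below Dll4, at 5.07 ± 1.94 TPM (SD, n = 2), as the lowest member.

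Dll1 showed a smaller shift of the same kind. Its coding transcript Dll1-201 (3581 nt) held 78.3% and 64.3% of the gene's TPM, and the retained intron Dll1-204 (751 nt), of whose bases 87.0% lie in exons of coding transcripts, held 19.3% and 33.4% from 47.3 and 60.3 counts. On coding transcripts alone Dll1 measured 15.1 TPM in replicate 1 and 7.89 TPM in replicate 2, so the libraries lay further apart than on all transcripts. Counted that way Dll1 was above Notch3 in replicate 1 (12.5 TPM) but below it in replicate 2 (12.26 TPM). The mean of Dll1 was then also below that of Notch3, at 11.5 against 12.4 TPM.

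In Notch1 the coding transcripts held 84.2% and 90.7% of TPM, and 97.9% and 98.8% of counts. Counted that way Notch1 measured 29.5 and 21.9 TPM, below the 32.4 and 25.7 TPM of Notch2 in each library, and Notch2 rather than Notch1 led the receptors with 41.5% ± 0.0371 of their sum (SD, n = 2). Hes5 kept 94.4% and 88.5% of its TPM on Hes5-201 (1273 nt), its 1 coding transcript.

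**Figure D2:**
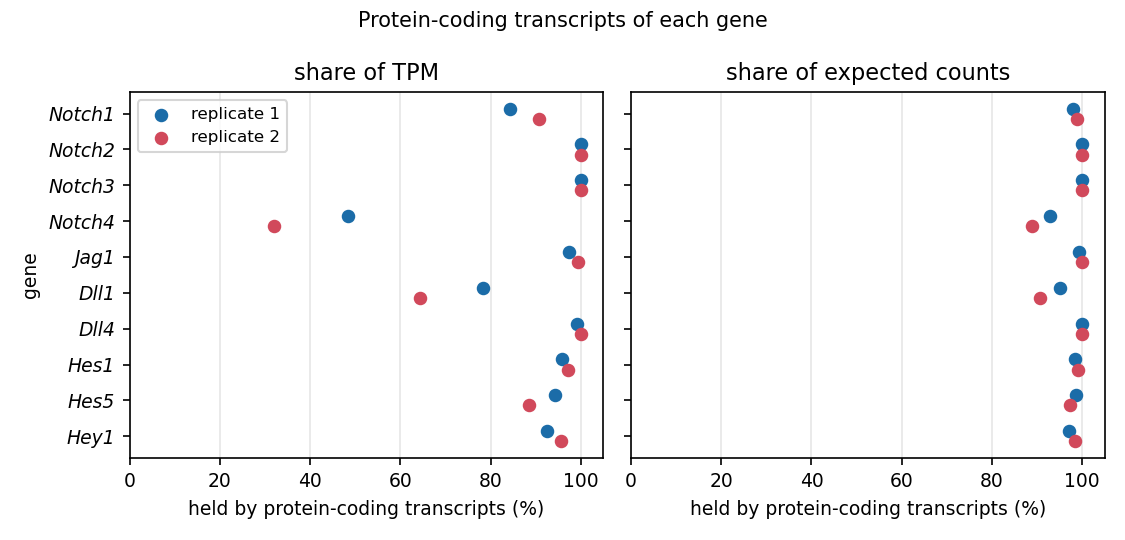
Share of each member held by protein-coding transcripts, as a percentage of TPM (left) and of expected counts (right), in replicate 1 (blue) and replicate 2 (red). On counts the lowest point is Notch4 in replicate 2 at 88.9%, while on TPM Notch4 lies at 48.5% and 32.1% and Dll1 at 78.2% and 64.3%.

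Some members share bases with genes on the other strand, and the sources used here do not say if counting was by strand, so reads of such a pair cannot be told apart with certainty. The largest partner was Gm13568, which overlaps the 3′ end of Notch1 and was given 126 and 164 expected counts, against 5483 and 4681 for Notch1. Gm20421, which overlaps Hes5 on the other strand, had 6.33 and 12.3 counts, against 140 and 279 for Hes5. Dll4 overlaps Gm14207, which had 19 and 28 counts beside 459 and 304 for Dll4.

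No member differed by the size rule, under which the libraries must be 2-fold or more apart on TPM + 1 with the higher one at 5 TPM or above: 0 of 10 members, against 5.56% of the 11480 genes at that level. At 1.5-fold 4 of 10 members were apart, against 27.1% of those genes. Between the replicates 8 of 10 members were lower in replicate 2, where 74.7% of all genes were lower, and 2 of 10 were higher, where 25.3% of all genes were. The members' split between lower and higher was thus near that of all genes. Their median log2 ratio of replicate 2 over replicate 1 on TPM + 1 was -0.42, and that of all genes was -0.29 with quartiles of -0.58 and 0.0040.

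The tables give for each TPM a credibility interval, at a level that is not stated, which covers the estimate within 1 library. These intervals did not overlap between the libraries for 8 of 10 members, against 64.7% of all genes. Lower in replicate 2 by this measure were 6 of 10, against 53.6% of all genes, and higher were 2 of 10, against 11.2%. Notch3 (11.6 to 12.7 and 11.5 to 12.5 TPM) and Notch4 (7.41 to 13.0 and 5.53 to 10.4 TPM) were the 2 whose intervals overlapped. The intervals surround the deposited posterior mean and not the TPM: in Notch2 the TPM of 32.4 lay above its interval of 30.7 to 32.2.

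Hes5 had a log2 ratio of 0.77 on TPM + 1, further from 0 than that of any other member at this setting; on protein-coding transcripts Dll1 was further, at -0.86 against 0.68, and with a pseudocount of 5 Jag1 was, at -0.60 against 0.54. Its share of gene counts was 2.04 times as high in replicate 2 (exact 95% interval 1.66 to 2.52, counting error only). Hes1 followed in the same direction at 0.19, with a count share 1.36 times as high (1.27 to 1.46). Both are short genes.

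Dll4, Jag1, Dll1 and Hey1 had log2 ratios of -0.67, -0.67, -0.61 and -0.58. Their shares of gene counts in replicate 2 were 0.678 (0.585 to 0.786), 0.744 (0.711 to 0.778), 0.648 (0.588 to 0.714) and 0.797 (0.742 to 0.856) times those in replicate 1. Notch1, Notch2 and Notch4 had log2 ratios of -0.52, -0.32 and -0.23. Notch3 stood near 0 at -0.03 on TPM, and its count share was 1.16 times as high in replicate 2 (1.09 to 1.23).

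The scale of the values decided how many genes were lower. The median log2 ratio of all genes was -0.29 on TPM, -0.07 on FPKM and -0.01 on counts scaled by TMM, a normalization by trimmed means, and the share of genes lower in replicate 2 was 74.7%, 56.2% and 50.4%. On the counts 7 of 10 members were lower, the change being Notch3. Set against the median of all genes under each of 7 scalings, Hes5, Hes1 and Notch3 were above it in 7 of 7, and Notch1, Notch2, Jag1, Dll1, Dll4 and Hey1 below it in 7 of 7. These 7 are not independent. TPM, FPKM, rescaled TPM and spike-in TPM differ mainly by a factor common to all genes, and so do the differently scaled counts. Setting values against the median takes that factor out, so agreement among such scalings was built in. Notch2 was nearest to the median, from -0.03 to -0.01. Notch4 was on both sides, at 0.06 on TPM and -0.44 on TMM counts.

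Gene length moved with the difference between libraries. Over 15075 genes at a mean of 1 TPM or more, the log2 ratio was lower in longer genes (Pearson r -0.393, Spearman rho -0.530, across genes of the same 2 libraries, as a description). Genes under 1000 nt had a median log2 ratio of 0.15, those of 1000 to 2000 nt -0.10, those of 2000 to 4000 nt -0.40, those of 4000 to 6000 nt -0.56 and those of 6000 nt or more -0.50.

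Against genes of their own length, most of the members that were lower in replicate 2 lay within the quartiles. Notch1 and Notch2, of 6000 nt or more, Jag1, of 4000 to 6000 nt, and Dll1, Hey1 and Notch4, of 2000 to 4000 nt, did so. The length of Notch4 is an average lowered by its short noncoding transcripts; its coding transcript, of 6591 nt, had a log2 ratio of -0.63 and lay within the quartiles of genes of 6000 nt or more. Dll4 lay just under the lower quartile of its class, -0.67 against -0.62. Notch3 lay 0.47 above the median of its class and outside its quartiles of -0.71 and -0.28. The short targets Hes1 and Hes5 lay above the upper quartile of 0.10 for genes of 1000 to 2000 nt, Hes5 by 0.87 over the class median. The part of length in any one of these differences was not tested.

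**Figure D3:**
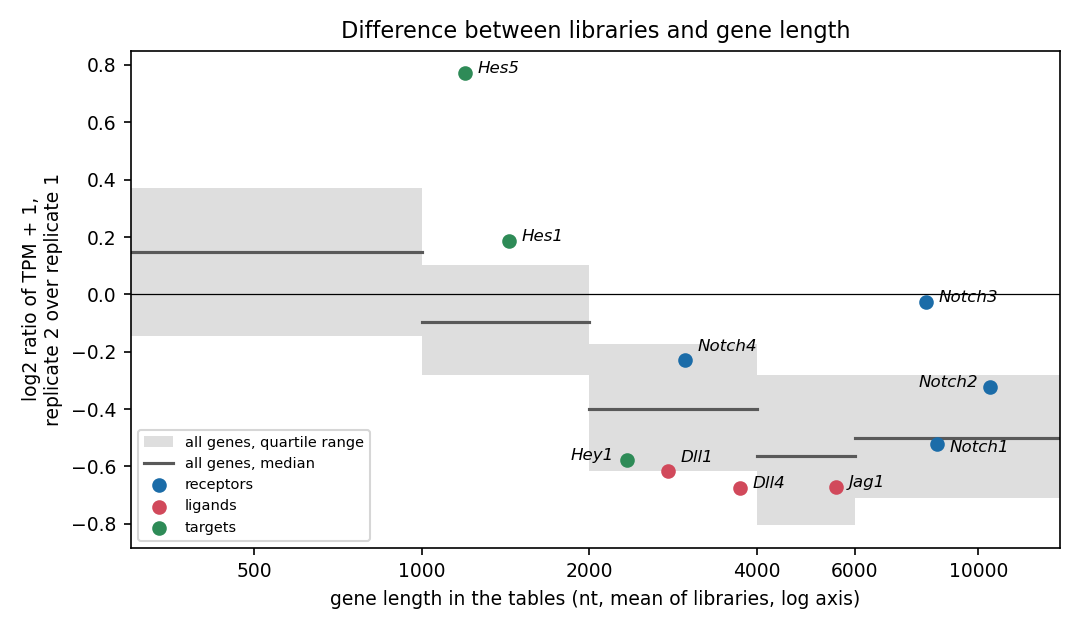
Log2 ratio of TPM + 1, replicate 2 over replicate 1, against gene length in nt (log axis), with receptors in blue, ligands in red and targets in green; grey boxes and dark lines give the quartiles and median of all genes in each length class. The ligands and Hey1 lie between -0.67 and -0.58 among genes of 2000 to 6000 nt, while Hes5 at 0.77, Hes1 at 0.19 and Notch3 at -0.03 lie above the boxes of their classes.

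Markers of the cells in which the vascular members are best known were present. The counts of lower markers below, taken without a floor, stand beside 74.7% of all genes at 5 TPM or more that were lower on TPM. The 6 endothelial markers were all detected, with summed TPM of 235 in replicate 1 and 214 in replicate 2; 4 were lower and 2 higher in replicate 2, the highest being Emcn at 65.3 and 73.3 TPM and the lowest Tek at 22.8 and 10.6 TPM. Of 5 arterial markers 4 were detected, with sums of 70.1 and 54.7 TPM. On TPM all 5 were lower in replicate 2, but on expected counts not all were. Their median log2 ratio on TPM + 1 was -0.16, nearer to 0 than the -0.29 of all genes at 5 TPM or more. Dll4 and Notch4 were lower in the same library, with log2 ratios of -0.67 and -0.23. The 6 mural markers, of pericytes, smooth muscle and renin cells, summed to 251 and 151 TPM. All 6 were lower in replicate 2 on TPM, but not all of them on expected counts. Notch3 was 12.5 and 12.3 TPM. The part of these cell types in the members' levels was not tested.

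For the epithelial members the nephron markers stand beside them. The 8 early nephron markers, detected in full, summed to 494 and 348 TPM, with 6 lower and 2 higher in replicate 2; the highest was Ccnd1 at 235 and 160 TPM, and the lowest Pou3f3 at 6.94 and 6.35 TPM. All 5 podocyte markers were lower in replicate 2, with sums of 89.8 and 62.4 TPM. Podxl was the highest of them, at 32.3 and 25.9 TPM, and Nphs1 the lowest, at 2.65 and 2.57 TPM. Both sets stand beside 74.7% of all genes at 5 TPM or more that were lower in replicate 2 on TPM.

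Hes5 is best known from neural tissue, and 2 of 6 neuron and glia markers were detected, with sums of 20.3 and 17.1 TPM. Of the 6, 3 were lower and 3 higher in replicate 2. Elavl4 was highest, at 13.3 and 10.1 TPM, from 419 and 518 counts. Skeletal muscle markers were detected in 2 of 5 cases, with sums of 23.0 and 23.6 TPM and Pax7 at 0 counts in both, and macrophage markers in 5 of 5, with sums of 104 and 81.1 TPM. Hes5 was 1.82-fold higher in replicate 2 on TPM. The part of these cells in the level of Hes5 was not tested.

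Beyond the members, 55 further genes of the pathway in 10 lists were followed. Of these 48 were detected, and the median over all 55 was 17.6 TPM. With no floor, 37 of the 55 were lower and 15 higher in replicate 2. The share of 74.7% lower among all genes is for genes at 5 TPM or more in the higher library, an unlike set. By the size rule 4 of the pathway genes were apart, all lower in replicate 2, out of 44 that reached 5 TPM (9.09%). Of all genes at that level 5.56% were apart by the rule in either direction, and 4.56% were lower by it. They were Heyl, Nrarp, Ncstn and Aph1b.

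The other Jagged and Delta-like ligands were scarce. Jag2 measured 1.28 and 1.13 TPM and Dll3, a Delta-like protein that does not activate receptors on neighbouring cells, 0.40 and 0.70 TPM. Jag1 was thus far above Jag2 in both libraries. Among 4 noncanonical ligands 2 were detected: Egfl7, a secreted protein of endothelium, at 136 and 147 TPM, and Dlk1, an imprinted gene, at 40.5 and 41.0 TPM. Dlk2 had 2 counts and 1 count.

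The 7 genes listed as other targets, which are further Hes and Hey genes and Nrarp, ran from levels like those of Hes1 down to 0. Their response to Notch in this tissue was not tested. Hes6, a Hes relative that counteracts Hes1, measured 51.8 and 45.8 TPM. Heyl, another Hey gene known from smooth muscle, measured 39.6 and 18.8 TPM, a log2 ratio of -1.03, and Nrarp, a feedback inhibitor that Notch itself induces, 15.8 and 6.11 TPM, a log2 ratio of -1.24. Both were lower in replicate 2, as Hey1 was.

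Of the genes with an RBPJ word, whose stretches are printed above, Hey2 measured 3.22 and 5.09 TPM and Hes7, the oscillator of somite formation, 0.18 and 0.31 TPM. Hes7 was below detection, on 6 and 12 counts. These genes were picked for the word with their values known, and no relation between the word and the difference between libraries was tested. Hes2 and Hes3 had 0 counts in both libraries, and for Hes2 3 counts would have been 0.104 and 0.0898 TPM.

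In the nuclear complex 5 of 6 genes were detected. Snw1, a splicing and transcription cofactor, led with 104 and 111 TPM, and Rbpj, the DNA-binding partner of all 4 receptors, measured 35.3 and 18.3 TPM; processed pseudogenes of Rbpj can share its reads, so its value is less certain. Its paralog Rbpjl, of the exocrine pancreas, had 0 counts in both. All 6 corepressors were detected and all were lower in replicate 2; Ctbp1 was highest at 250 and 155 TPM, Fhl1 next at 47.4 and 35.4 TPM, and Spen, a scaffold of the repressor complex on RBPJ, lowest at 15.0 and 10.3 TPM.

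The proteases that process the receptors were all detected. Adam10, the main sheddase of ligand-bound Notch, measured 65.4 and 38.8 TPM, Adam17 32.3 and 16.5 TPM, and Furin, which cuts the receptors on their way to the surface, 10.7 and 8.52 TPM. The 7 gamma-secretase genes moved in both directions, 4 lower and 3 higher in replicate 2. Psenen measured 101 and 139 TPM, while Ncstn, the substrate-binding subunit, measured 107 and 49.9 TPM, a log2 ratio of -1.09.

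The APH1 subunit genes are less certain. Aph1b measured 10.4 and 4.54 TPM and Aph1c 3.53 and 2.18 TPM, but these are close copies of each other in the mouse, and the shared-out counts of the pair depend on how reads matching both were divided.

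Enzymes that modify the receptors' EGF repeats were all detected, 5 of 5, with Poglut1 at 50.0 and 38.1 TPM and Lfng, a fringe that alters which ligands a receptor answers to, at 26.3 and 21.7 TPM. Pofut1, the O-fucosyltransferase that Notch receptors need, was the lowest at 7.05 and 7.82 TPM. In the ligand endocytosis list Epn1 measured 44.1 and 35.1 TPM, Mib1, the ubiquitin ligase that makes ligands active, 24.2 and 26.9 TPM, and Neurl1b 1.27 and 2.17 TPM. Among 9 genes of receptor turnover, all detected, Nedd4, a general ubiquitin ligase, was highest at 635 and 336 TPM, Dtx3 next at 91.9 and 80.4 TPM and Dtx4 lowest at 5.47 and 2.74 TPM.

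**Figure D4:**
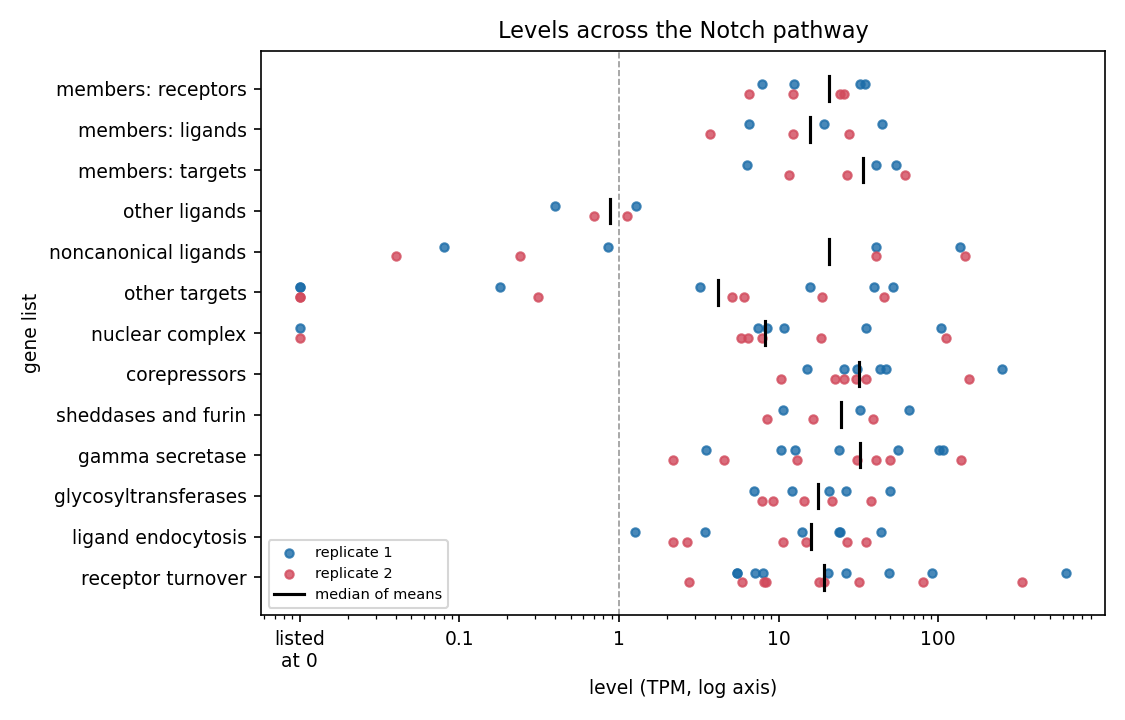
Level in TPM (log axis) of every gene in the member groups and the 10 further pathway lists, in replicate 1 (blue) and replicate 2 (red), with a black bar at the median of the genes' means and a dashed line at 1 TPM; genes at 0 are drawn at the left edge. The 7 genes below 1 TPM lie in the lists of other ligands, noncanonical ligands, other targets and the nuclear complex, and Nedd4 at 635 and 336 TPM is the highest gene.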

How the data were processed

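Total RNA of more than 200 nt, 10 ng per library with spike-ins, was sequenced from 2 kidney samples of 1 group, per the labels. Per the file headers, the authors deposited for each library a gene and a transcript table with expected counts (estimated reads, not whole), TPM and FPKM, posterior mean TPM, isoform percent (a transcript's share of its gene's TPM), and bounds of a TPM credibility interval, a signal on the TPM scale. Per the deposited notes on the files, the build is mm10 and the annotation GENCODE M4. The sources used here name no quantification tool or version and do not say whether strand was used.

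Gene IDs were matched by their stable part to GENCODE M21 on GRCm38, the same assembly: 42462 of 43346 matched. Lengths of 3 of the members' 45 transcripts differ between the releases. Coordinates are 1-based. Promoter windows came from RefSeq (GRCm38.p6). The gene total was 28429080 and 27758872 expected counts. Ratios of count shares carry exact 95% binomial intervals, and the limit of a gene without counts was set at 3 counts; both cover counting error only. Nothing was tested, because 1 group has no contrast. Detection was 1 TPM in both libraries, and the size rule used a pseudocount of 1, at least 2-fold and at least 5 TPM. Expected counts were rounded to integers for the TMM factors of edgeR 4.0.16 (R 4.3.3); other steps used Python 3.11.15, pandas 2.3.3 and scipy 1.17.1. The size rule was also run on simulated libraries with an assumed coefficient of variation of 0.2 and no length trend. There it called 86.0% of genes set 3-fold apart, 100% of those set 6-fold apart and 1.6% of unchanged genes. In the real pair it called 5.56% of genes. The simulated spread was assumed and not measured from these libraries.

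The members, the pathway lists and the marker lists were chosen with earlier results of these data known. Named from each pathway list were the 2 highest and the lowest gene by mean TPM and any gene past the size rule; from marker lists the highest or lowest, besides Six2 and Foxd1, which name compartments. Hey2 and Hes7 were added after their promoter matches and values were seen, and the count on protein-coding transcripts was added after seeing the data. Alternatives were the posterior mean TPM, FPKM, other scalings, other floors and folds, and each library alone.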

Additional observations from a re-analysis of the deposited data

How the results depend on the processing

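The number of members detected stayed at 10 under every floor, scaling and single library tried. Jag1 took 63.2% of the ligand TPM, 61.8% on posterior mean TPM and 68.4% on protein-coding transcripts, a setting chosen after seeing the data. With 1 library at a time the share of Notch1 among the receptors ranged from 35.1 to 39.9%. That of Jag1 among the ligands ranged from 63.1474 to 63.1797%, and that of Hes1 among the targets from 53.4 to 61.5%. In the order 7 to 8 of 10 members held their place. Without replicate 1 Notch2 led the receptors, with 37.5% of their sum. On posterior mean TPM Notch1 led the receptors, with 40.2% ± 1.84 of their sum (SD, n = 2). On protein-coding transcripts Notch2 led them, and 4 of 10 members kept their place. At 1.5-fold, 4 members were apart in place of 0 (Jag1, Dll1, Dll4 and Hes5), beside 27.1% of all genes. The median log2 ratio of genes of 6000 nt or more, less that of genes under 1000 nt, was -0.65, and -0.46 with all genes above 0 in both libraries or -0.75 at a mean of 5 TPM. Notch3's log2 ratio changed sign in 3 settings (FPKM, TMM counts and median-ratio counts), and no other member's did. Of 50 member levels 1, that of Notch4 on coding transcripts, moved by over 1.5-fold. The causes were not tested. Leaving out a library gives no value for a ratio between libraries or for a leading transcript shared by both. No paired analysis was possible because the study has 1 group. Depth limits the transcript shares of Notch4, whose noncoding transcripts rest on 37.2 and 38.5 counts, and the level of Hes5, on 140 and 279 counts.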
